A study of Mus musculus with 40 samples.

Results

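The genes described here are 10 heat shock chaperones of the mouse liver, taken by name from the probe panel: Hsp90aa1, Hsp90ab1, Hspa8, Hsph1, Dnaja1, Dnajb1, Hspa1a, Hspa1b, Hspd1 and Hspe1. They are 10 of the 21448 gene symbols on the panel and hold 23 of its 30146 probes. All 10 genes, and 21 of the 23 probes, passed the filter on low counts, which left 17877 probes for the test. Each gene was read on its most counted probe, and 12412 genes of the panel were tested on such a probe.

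Liver RNA came from wild-type Crl:CD1(ICR) mice, an outbred stock, that received GenX (the ammonium salt of a perfluoroalkyl ether acid) by oral gavage for 90 days. The doses were 0.1 mg/kg bw/d (per kg of body weight and day), 0.5 mg/kg and 5 mg/kg, and controls received deionized water. Each of the 8 groups, 4 per sex, was represented by 5 mice of 1 library each. RNA was released from 1 scraped section of formalin-fixed, paraffin-embedded liver per animal and counted with TempO-Seq, in which pairs of detector oligos are ligated on the transcript and sequenced. The ages of the mice were not given in the sources used here. One female at 0.5 mg/kg, mouse 355, was left out for low depth, so that group held 4 mice. Values are CPM, read counts scaled to a fixed library total, after TMM scaling, an adjustment of library size. They depend on the probe and are compared between mice and groups but not between genes. The section is bulk tissue, so fewer cells of a type and less RNA per cell cannot be told apart.

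Chaperones bind unfolded or partly folded proteins and release them in cycles driven by ATP. HSP90 proteins hold signalling proteins and receptors in a state that can be activated. HSP70 proteins take clients from J proteins (HSP40), which start the ATP cycle, and HSP110 proteins are nucleotide exchange factors that end it. The mitochondrial chaperonin HSP60, with its lid HSP10, folds imported proteins in the matrix. Many of these genes are targets of heat shock factor 1 (HSF1), which binds heat shock elements made of inverted GAA units, and several are also transcribed at a steady level in unstressed cells. Liver is rich in these proteins, as a tissue that makes and secretes much protein.

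The stretches below show the inverted GAA units found before RefSeq start sites of the genes, as the classic element of the family. The 250 bases before the start site were searched in RefSeq promoter windows (GRCm38.p6), which held 7 of the 10 genes. Hsp90aa1, Hsp90ab1 and Hspa8 had no entry. Both arrangements of a pair of units, GAANNTTC and TTCNNGAA, were counted. Each letter string reads the same on both strands, and neighbouring matches may overlap. A gene counted as holding a match where any of its windows did. At least 1 pair was present in 6 of the 7 genes, against 14.5% of all 27025 genes with a window. These 6 are not separate cases. The windows of Hspa1a and Hspa1b are nearly identical, and Hspd1 matched only at the stretch it shares with Hspe1. A row of 3 units, GAANNTTCNNGAA or TTCNNGAANNTTC, was present in 2 of the 7, Hspe1 and Hspd1, which share the same stretch, against 0.514% of all genes. The string AGGNCANAGGNCA, searched on both strands as a plain form of the direct repeat bound by PPAR receptors, was in 0 of the 7 genes, against 0.4% of all genes. A match describes the letters and is not evidence of binding. In the lines below, which give 30 bases each on the strand of the gene, 5′ to 3′, the capitals mark the matched units.
Hspa1a: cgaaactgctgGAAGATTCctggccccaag
Hspa1b: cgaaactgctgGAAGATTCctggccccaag
Hsph1: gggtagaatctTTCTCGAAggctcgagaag
Dnaja1: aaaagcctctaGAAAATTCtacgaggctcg
Hspe1: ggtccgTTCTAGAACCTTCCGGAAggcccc
The stretches lie at chr17:34972242-34972271 (minus strand) for Hspa1a, chr17:34959324-34959353 (minus strand) for Hspa1b, chr5:149636351-149636380 (minus strand) for Hsph1, chr4:40722333-40722362 (plus strand) for Dnaja1 and chr1:55088053-55088082 (plus strand) for Hspe1. The matches begin 104, 104, 33, 124 and 89 bases before the RefSeq start site, in that order. Those of Hsph1 and Dnaja1 lie inside the gene spans of GENCODE M21, chr5:149614287-149636376 (minus strand) and chr4:40722150-40737149 (plus strand). The windows of Dnajb1 and the first window of Hspd1 held no match, and the second window of Hspd1 held the stretch shown for Hspe1.

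The positions of the genes bear on how they are read. Hspd1 (chr1:55077835-55088243, minus strand) and Hspe1 (chr1:55088132-55091307, plus strand) stand head to head in GRCm38, and their annotated spans share 112 bases. The 18 capital bases of Hspe1, 4 GAA units in alternating orientation, lie at chr1:55088059-55088076. They begin 89 bases before the RefSeq start of Hspe1. On the strand of Hspd1 they lie 144 to 127 bases before its second RefSeq start and begin 167 bases inside its first. Hspa1b (chr17:34956436-34959238) and Hspa1a (chr17:34969190-34972156), both on the minus strand, are single-exon copies 9951 bases apart. Their coding sequences are identical at 1915 of 1923 aligned bases (99.6%), and their promoter windows at 247 of 250 bases (98.8%). The probe sequences were not used here, so the split of reads between Hspa1a and Hspa1b is uncertain.

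The 39 libraries used held 10341341 to 15562253 reads. The histogram of nonzero counts of a library had its first peak at 20.8 to 44.8 reads, which was taken as the size of 1 counted molecule. On that reading the libraries rested on an estimated 287244 to 656743 molecules, and 1 molecule was worth 1.52 to 3.48 CPM. Some counts lay below the peak, such as 2 reads of Hspd1_29930 in mouse 255 (peak at 36.6 reads), so molecule numbers are estimates throughout. Estimated molecules were higher in males at 5 mg/kg (483008 to 656743) than in control males (287244 to 369995), and their part in the male results was not tested. In every group hepatocyte markers had reads, at a summed 23500 to 57500 CPM for 8 markers with a probe. The 8 macrophage markers summed to 41.4 to 215 CPM, with Timd4 at 0 throughout, and the 8 endothelial markers to 151 to 330 CPM. Lymphocyte and erythroid markers summed to at most 97.2 CPM. The hepatocyte sum was 42200 to 51800 CPM in control males and 23500 to 31900 CPM in males at 5 mg/kg, and 36300 to 57500 CPM in control females and 25800 to 37900 CPM in females at 5 mg/kg. Of 8 stellate and fibroblast markers 2 rose in males at 5 mg/kg, Col3a1 from 8.69 ± 3.23 to 47.5 ± 13.5 CPM and Col1a1 from 16.8 ± 8.16 to 51.9 ± 13.3 CPM (n = 5 each), while the median log2 fold change of the 8 was -0.06, with a lowest value of -1.72. Whether these shifts bear on the chaperone values was not tested.

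At the highest dose the livers of both sexes held more RNA of the HSP90 genes and of the mitochondrial HSP60 and HSP10 genes. At 5 mg/kg, 6 of the 10 genes rose in males (Hsp90aa1, Hsp90ab1, Hspa8, Dnaja1, Hspd1 and Hspe1) and 4 rose in females (Hsp90aa1, Hsp90ab1, Hspd1 and Hspe1), by 1.47- to 5.62-fold. The male call of Hspa8 was lost by DESeq2 and without single mice, and those of Hspa8 and Dnaja1 were lost with mouse 355 in the fit. The female calls of Hspd1 and Hspe1 were lost without single mice, and of the female calls only that of Hsp90ab1 stayed with mouse 355 in the fit. None of the 10 was called lower than controls by edgeR with the filter on low counts. The stress-induced HSP70 copy Hspa1b was not called at any dose in that fit but was called in both directions under other settings, given with its values, and the most counted probes of the inducible genes Hspa1a and Dnajb1 were read as at most a few molecules in a mouse.

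**Figure D1:**
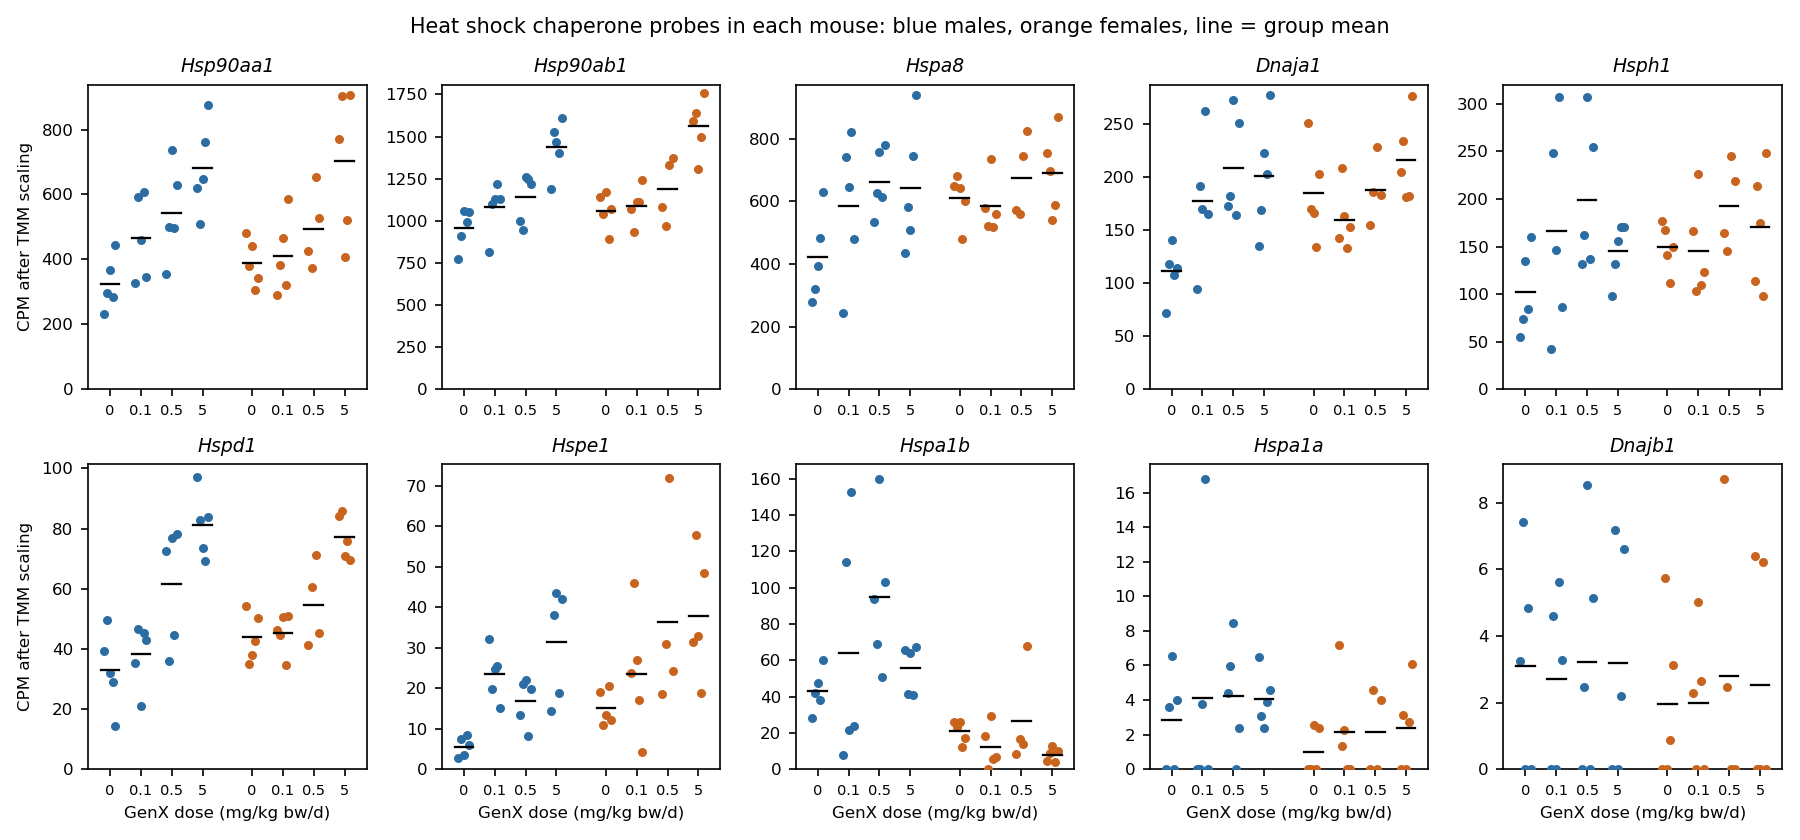
CPM after TMM scaling (y axis, linear, starting at 0, a scale of its own in each panel) of the most counted probe of each of the 10 chaperone genes by GenX dose (x axis, mg/kg bw/d). Each point is 1 mouse, blue for males and orange for females, and each line is the group mean. For Hspd1 the 5 males at 5 mg/kg sit between 69.1 and 97.2 CPM, above all 5 control males (14.2 to 49.5 CPM).

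A gene was called where its p in edgeR's quasi-likelihood test, adjusted over all probes by Benjamini-Hochberg, lay below 0.1. In males at 5 mg/kg, 6 of the 10 were called, against 9.35% of the 12412 genes. All 6 were increases, against 5.59% of genes increased. In males at 0.5 mg/kg, 4 of the 10 were called, all increases, against 2.61% of genes called and 1.88% increased. Over all genes 233 of the 324 calls at this dose were increases, and 189 of 309 with the size factors of DESeq2. All 10 log2 fold changes were above 0 there, with a median of 0.82 against a median of 0 over all genes. In males at 0.1 mg/kg, 1 of the 10 was called, against 0.0403% of genes. In females at 5 mg/kg, 4 of the 10 were called, all increases, against 4.09% of genes called and 2.09% increased.

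None of the 10 genes was called in females at the lower doses. At 0.5 mg/kg, 0 of the 10 were called by edgeR, against 0.201% of genes, and also 0 by DESeq2, with 1 gene at an unadjusted p below 0.05. At 0.1 mg/kg, 0 of the 10 were called by either tool, against 0% of genes, and 0 had an unadjusted p below 0.05. From the lowest to the highest dose, the 10 genes had median log2 fold changes of 0.04, 0.36 and 0.47 in females, where those over all genes were 0, 0 and -0.01. The male medians were 0.54, 0.82 and 0.60, where those over all genes were 0, 0 and 0.11. All treated groups of a sex were compared with the same 5 controls.

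The male calls at the lower doses leaned on single mice and on the library left out. With mouse 355 kept in the fit, the male counts were 0, 0 and 4 from the lowest to the highest dose. At 0.5 mg/kg the count was 1 without mouse 303 and 2 without mouse 101, 104 or 305. At 5 mg/kg in males it was 5 or 6 whichever mouse was left out. In females at 5 mg/kg it was 1 (Hsp90ab1) with mouse 355 kept, and 2 without mouse 152, 153, 451 or 452.

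**Figure D2:**
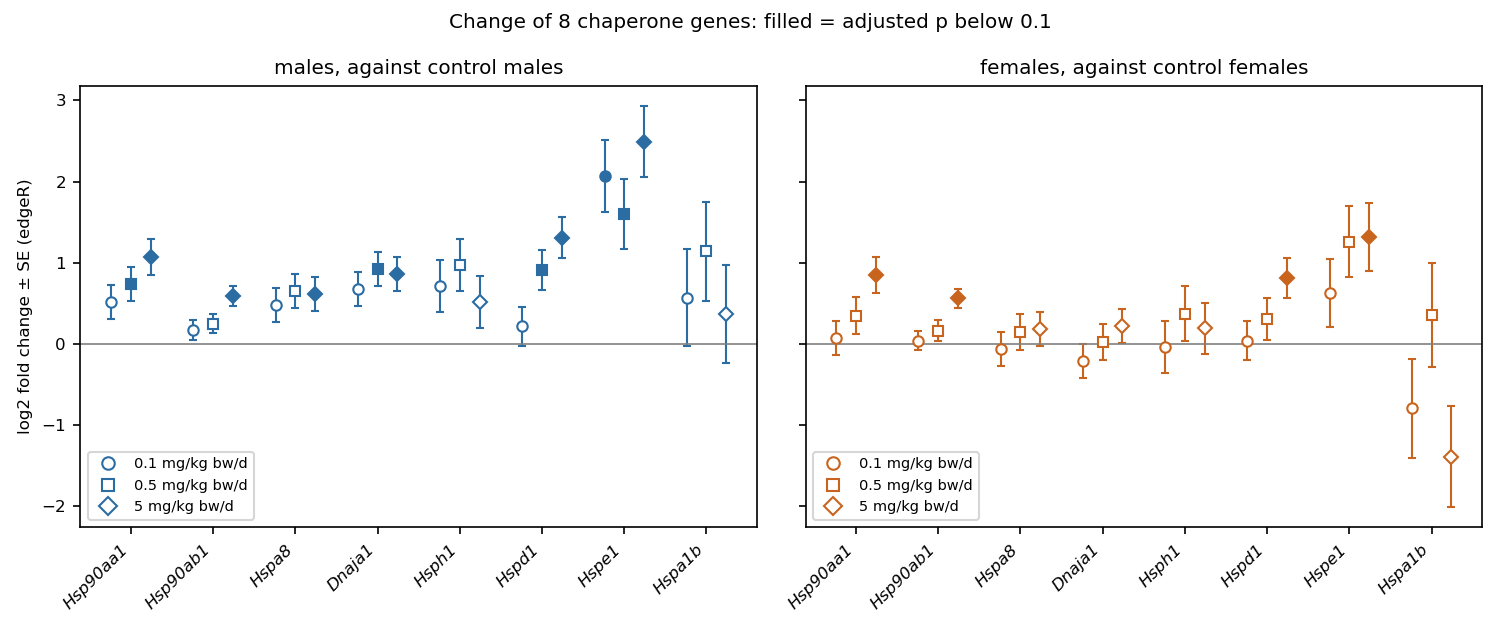
Log2 fold change with its SE (y axis) of 8 chaperone genes (x axis) in the 3 dose groups against the controls of the same sex, males left and females right, from edgeR. Filled symbols have an adjusted p below 0.1, and Hspe1 in males has filled symbols at all doses, at 2.07, 1.60 and 2.49.

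Hsp90aa1, which encodes the stress-inducible HSP90 alpha, read 233, 297, 366, 284 and 443 CPM in the control males. It read 620, 508, 649, 760 and 875 CPM in the males at 5 mg/kg. Every male at this dose was above every control male. The means were 325 ± 81.4 and 682 ± 140 CPM (SD, n = 5 each), and the log2 fold change was 1.07 ± 0.22 SE (edgeR adjusted p = 0.000381). The intermediate doses lay between, at 466 ± 132 CPM at 0.1 mg/kg (n = 5) and 543 ± 145 CPM at 0.5 mg/kg (n = 5). At 0.5 mg/kg the groups overlapped, and the log2 fold change of 0.74 ± 0.21 was called (edgeR adjusted p = 0.0641), while that of 0.52 ± 0.21 at 0.1 mg/kg was not (edgeR adjusted p = 0.35). The call at 0.5 mg/kg was lost without mouse 101, 102, 104, 303 or 305, and with the size factors of DESeq2 (edgeR adjusted p = 0.107).

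Control females read 480, 379, 441, 305 and 343 CPM for Hsp90aa1. Females at 5 mg/kg read 770, 904, 408, 522 and 905 CPM. Of these, 4 were above every control and 1, at 408 CPM, lay within the control range. The log2 fold change was 0.85 ± 0.22 (edgeR adjusted p = 0.0139). At 0.1 and 0.5 mg/kg the female means were 409 ± 119 CPM (n = 5) and 495 ± 123 CPM (n = 4), with log2 fold changes of 0.07 ± 0.21 and 0.35 ± 0.23, neither called.

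Hsp90ab1, which encodes the constitutive HSP90 beta, had a smaller change with less spread. The control males read 774, 908, 1060, 993 and 1050 CPM. The males at 5 mg/kg read 1190, 1530, 1470, 1400 and 1610 CPM. The groups did not overlap, and the log2 fold change was 0.59 ± 0.12 (edgeR adjusted p = 0.000721). Control females read 1140, 1040, 1170, 894 and 1070 CPM, and females at 5 mg/kg read 1590, 1640, 1310, 1500 and 1760 CPM. The female groups did not overlap either, with a log2 fold change of 0.56 ± 0.12 (edgeR adjusted p = 0.00316). The lower doses gave log2 fold changes of 0.17 at 0.1 mg/kg and 0.25 at 0.5 mg/kg in males, and of 0.04 and 0.16 in females, each with an SE of 0.12 or 0.13, and none was called.

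Hspa8, which encodes the constitutive HSC70, varied widely among the control males. They read 278, 320, 395, 484 and 630 CPM. The males at 5 mg/kg read 434, 581, 510, 745 and 939 CPM. The ranges overlapped, and the log2 fold change of 0.61 ± 0.21 was called narrowly (edgeR adjusted p = 0.0824). The call was lost by DESeq2 (adjusted p = 0.156) and without mouse 101, 102, 103, 402, 404 or 405. It was also lost with the groups compared alone (edgeR adjusted p = 0.127) and with mouse 355 kept in the fit (edgeR adjusted p = 0.177). At 0.1 and 0.5 mg/kg the male means were 587 ± 231 and 662 ± 103 CPM (n = 5 each), with log2 fold changes of 0.48 and 0.65 (edgeR adjusted p = 0.35 and 0.129). The value at 0.5 mg/kg was called without the filter on low counts (edgeR adjusted p = 0.00854), with counts in molecules (0.0816) and with the groups compared alone (0.0874). In females Hspa8 ranged from 479 to 870 CPM over all doses, with log2 fold changes of -0.06, 0.15 and 0.18, and none was called.

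Dnaja1 encodes a J protein that hands clients to HSC70. The control males read 71.7, 118, 141, 108 and 114 CPM. The males at 0.5 mg/kg read 173, 182, 273, 164 and 251 CPM, and those at 5 mg/kg read 135, 169, 223, 203 and 277 CPM. Every male at 0.5 mg/kg was above every control male, while at 5 mg/kg 1 male lay within the control range. The log2 fold changes were 0.92 ± 0.21 at 0.5 mg/kg (edgeR adjusted p = 0.00787) and 0.86 ± 0.21 at 5 mg/kg (edgeR adjusted p = 0.00385). Both calls were lost with mouse 355 kept in the fit (edgeR adjusted p = 0.316 and 0.131). At 0.1 mg/kg the male value was 0.68 ± 0.21 and not called (edgeR adjusted p = 0.35).

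Dnaja1 was not called in females at any dose. Control females read 251, 170, 166, 134 and 203 CPM, and females at 5 mg/kg read 205, 234, 181, 182 and 276 CPM. The ranges overlapped, and the log2 fold change was 0.22 ± 0.21 (edgeR adjusted p = 0.895), with a 95% interval from -0.18 to 0.63. At 0.1 and 0.5 mg/kg the female values were -0.21 ± 0.21 and 0.02 ± 0.22.

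Hsph1, the HSP110 exchange factor of HSP70, was not called in any group with all 8 groups fitted and the filter on low counts. The control males read 55.1, 73.9, 135, 84.0 and 160 CPM. The males at 0.5 mg/kg read 132, 162, 307, 137 and 255 CPM. Most treated males were above most controls, but the ranges overlapped, and the log2 fold change was 0.97 ± 0.32 (edgeR adjusted p = 0.141). It was called without the filter (edgeR adjusted p = 0.00616), with counts in molecules (0.0753) and with the groups compared alone (0.0984). At 0.1 mg/kg the 5 males spread from 42.1 to 307 CPM. At 5 mg/kg the values were 0.52 ± 0.32 for males (edgeR adjusted p = 0.398) and 0.19 ± 0.32 for females (edgeR adjusted p = 1).

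Hspd1, which encodes the mitochondrial chaperonin HSP60, read 39.3, 49.5, 32.1, 28.8 and 14.2 CPM in the control males. It read 97.2, 82.7, 73.6, 69.1 and 83.8 CPM in the males at 5 mg/kg. The groups did not overlap, and the log2 fold change was 1.31 ± 0.25 (edgeR adjusted p = 0.00015). The males at 0.5 mg/kg read 72.4, 35.9, 76.9, 44.6 and 78.2 CPM. Of these, 3 were above every control and 2 were not, with a log2 fold change of 0.91 ± 0.25 (edgeR adjusted p = 0.0397), a call lost without mouse 104, 105, 301, 303 or 305. At 0.1 mg/kg the male mean was 38.3 ± 10.5 CPM (n = 5), with a log2 fold change of 0.22 ± 0.24 that was not called.

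Control females read 54.4, 34.8, 37.8, 42.7 and 50.2 CPM for Hspd1. Females at 5 mg/kg read 84.3, 85.9, 70.9, 75.7 and 69.6 CPM. These groups did not overlap, and the log2 fold change was 0.81 ± 0.25 (edgeR adjusted p = 0.0589). The call was lost without mouse 152, 153, 154, 451 or 452 (edgeR adjusted p up to 0.171). At 0.1 and 0.5 mg/kg the female means were 45.4 ± 6.59 CPM (n = 5) and 54.6 ± 13.8 CPM (n = 4), and neither dose was called.

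Hspe1, which encodes HSP10, the lid of the same chaperonin, had the largest fold among the 10 genes. The control males read 2.75, 7.33, 3.43, 8.49 and 5.87 CPM, and the males at 5 mg/kg read 14.3, 38.1, 43.6, 18.8 and 41.9 CPM. The groups did not overlap, and the log2 fold change was 2.49 ± 0.44 (edgeR adjusted p = 5.51e-05). These are low counts. Over the 5 control males they amounted to about 9 molecules and over the 5 males at 5 mg/kg to about 96. The ratio was 5.65 after division by the TMM-scaled library sizes of each group in molecules, with a 95% counting interval from 2.86 to 12.7. Such intervals cover counting error only.

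Hspe1 was also higher in males at the lower doses. The males at 0.1 mg/kg read 32.1, 19.8, 24.7, 25.4 and 15.1 CPM, and those at 0.5 mg/kg read 13.4, 21, 22.1, 8.17 and 19.7 CPM. Every male at 0.1 mg/kg was above every control male, as was the case for 0.346% of all genes, while at 0.5 mg/kg 1 male lay within the control range. The log2 fold changes were 2.07 ± 0.44 (edgeR adjusted p = 0.0801) and 1.60 ± 0.43 (edgeR adjusted p = 0.0392). The call at 0.1 mg/kg was lost without mouse 101, 103, 104, 105, 201, 202 or 204, with counts converted to molecules, and in a fit of the 2 groups alone. The call at 0.5 mg/kg was lost without mouse 101, 103 or 303, with counts in molecules (edgeR adjusted p = 0.103) and with the 2 groups alone (edgeR adjusted p = 0.137).

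Females began from a higher Hspe1 level. Control females read 19, 10.8, 13.4, 20.5 and 12.2 CPM, and females at 5 mg/kg read 31.4, 57.8, 32.9, 18.9 and 48.3 CPM. Of the treated females 4 were above every control, and the log2 fold change was 1.32 ± 0.42 (edgeR adjusted p = 0.0902). The call was lost without mouse 151, 152, 153, 155, 451, 452, 453 or 455, 8 of the 10 mice compared (edgeR adjusted p up to 0.274). The molecules summed to about 32 in the control females and about 64 in the females at 5 mg/kg. At 0.1 mg/kg the 5 females read 4.28 to 45.9 CPM, and at 0.5 mg/kg the 4 females read 18.5 to 71.8 CPM, with log2 fold changes of 0.63 ± 0.42 and 1.26 ± 0.44 that were not called.

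Groups that did not overlap were counted over the whole panel as well. Each treated male was above each control male for 4 of the 10 genes at 5 mg/kg (Hsp90aa1, Hsp90ab1, Hspd1 and Hspe1), against 5.93% of all genes. At 0.5 mg/kg this held for 1 of the 10 (Dnaja1), against 2.34%. In females at 5 mg/kg it held for 2 of the 10 (Hsp90ab1 and Hspd1), against 2.13%.

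Of the genes that respond most strongly to acute heat, Hspa1b was not called with all 8 groups fitted and the filter on low counts. Hspa1a and Dnajb1 were barely read. Hspa1b, which encodes a stress-induced HSP70, read 28.1, 42.2, 47.6, 38.3 and 60.1 CPM in the control males and 65.7, 41.6, 63.8, 40.7 and 67.1 CPM in the males at 5 mg/kg. The ranges overlapped, and the log2 fold change was 0.37 ± 0.60 (edgeR adjusted p = 0.987). At 0.5 mg/kg the males read 93.5, 69.0, 160, 50.5 and 103 CPM. Of these, 4 were above every control, and the change was not called (edgeR adjusted p = 0.34), with a 95% interval of the log2 fold change from -0.06 to 2.33. With the groups compared alone it was called, at 1.12 (edgeR adjusted p = 0.0379). At 0.1 mg/kg the males spread from 7.71 to 153 CPM.

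In females the Hspa1b values at 5 mg/kg were lower than in controls. The control females read 26, 23.3, 25.7, 12.3 and 16.9 CPM, and the females at 5 mg/kg read 4.21, 9.06, 12.8, 3.88 and 9.86 CPM. The ranges overlapped at 1 mouse each, and the log2 fold change of -1.39 ± 0.62 was not called (edgeR adjusted p = 0.258). Without the filter on low counts the value of -1.40 was called (edgeR adjusted p = 0.0328). These values rested on about 43 molecules in the controls and about 13 at 5 mg/kg, a ratio of 0.372 with a counting interval from 0.184 to 0.706. The share of reads that its near-identical copy Hspa1a could add or take is unknown.

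On its most counted probe Hspa1a was at 0 in 15 of the 39 mice and reached 16.8 CPM, and Dnajb1, a J protein of the HSP70 stress response, was at 0 in 17 and reached 8.72 CPM. A value of 1.52 to 3.48 CPM was taken as 1 molecule, so a typical library held an estimated 1 molecule of either gene. Neither was called in any comparison. The other Hspa1a probe, Hspa1a_31063, was at 0 in all 5 control males and read 3.36, 8.02, 10.6, 2.97 and 2.16 CPM in the males at 0.5 mg/kg. It had reads in every male at this dose but was not called (edgeR adjusted p = 0.15), nor was it at 0.1 and 5 mg/kg (edgeR adjusted p = 0.35 and 0.11), where it reached 6.78 and 4.58 CPM.

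Control mice of the sexes were compared to give the base levels. Among the 10 genes, 2 were higher in control females than in control males, against 3.89% of genes called in either direction. Dnaja1 was higher by a log2 value of 0.74 ± 0.21 (edgeR adjusted p = 0.0378) and Hspe1 by 1.45 ± 0.43 (edgeR adjusted p = 0.0584). For Hspe1 every control female was above every control male, which held for 2.38% of all genes. For Hspa1b every control female was below every control male, which held for 1.68% of all genes, but its log2 difference of -1.05 ± 0.61 was not called (edgeR adjusted p = 0.399), except with the groups compared alone (edgeR adjusted p = 0.0567). Without mouse 101 or mouse 151, and with mouse 355 kept, the count was 0.

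The female change was then set against the male change at each dose. None of the 10 genes differed by edgeR at any dose, where 0%, 0.322% and 1.19% of all genes did so from the lowest to the highest. DESeq2 also called 0 at each dose, and 2, 1 and 2 of the 10 had an unadjusted p below 0.05. Those were Dnaja1 and Hspe1 at 0.1 mg/kg, Dnaja1 at 0.5 mg/kg, and Dnaja1 and Hspa1b at 5 mg/kg. For Dnaja1 the female log2 change minus the male one was -0.88 ± 0.29 at 0.1 mg/kg, with a 95% interval from -1.46 to -0.31 (edgeR adjusted p = 0.224). It was -0.89 ± 0.30 at 0.5 mg/kg, with an interval from -1.49 to -0.30 (edgeR adjusted p = 0.21). For Hsp90ab1 at 5 mg/kg the difference was -0.03 ± 0.17 with an interval from -0.37 to 0.31, and for Hsp90aa1 it was -0.22 ± 0.30 with an interval from -0.81 to 0.37. Other probes of these genes gave larger differences, none called. They were -0.88 at Hsp90aa1_68773 (interval from -1.62 to -0.15, edgeR adjusted p = 0.304), -1.49 at Hsp90aa1_31761 (from -2.63 to -0.36, edgeR adjusted p = 0.228) and -0.55 at Hsp90ab1_69879 (from -0.99 to -0.12, edgeR adjusted p = 0.26). The remaining 2 Hsp90ab1 probes gave -0.15 and 0.37. For Hspa1b at 5 mg/kg it was -1.75 ± 0.86 (edgeR adjusted p = 0.399), and a fit of the groups compared alone called it (edgeR adjusted p = 0.0596).

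The step from 0.5 to 5 mg/kg was tested within each sex. In males 0 of the 10 genes were called by edgeR, against 3.01% of genes, and in females 0, against 1.38%. DESeq2 called 0 in males and 1 in females (Hsp90ab1), and 2 and 3 genes had an unadjusted p below 0.05. Without the filter Hspa1b was called lower in females (-1.75, edgeR adjusted p = 0.00776). Hsp90ab1 was higher at 5 than at 0.5 mg/kg by a log2 value of 0.34 ± 0.12 in males (edgeR adjusted p = 0.204) and 0.40 ± 0.13 in females (edgeR adjusted p = 0.215). Dnaja1 and Hspa8 in males differed between these doses by -0.05 each, with 95% intervals from -0.46 to 0.35 and from -0.46 to 0.37.

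Other probes of the same genes served as a check on the readings. Besides the most counted probe, 6 probes of Hsp90aa1, Hsp90ab1 and Hsph1 had reads in every mouse. In males at 5 mg/kg all 6 moved in the direction of the most counted probe and 4 were called, and in females at 5 mg/kg all 6 did so and 1 was called. The second probe of Hsp90aa1, Hsp90aa1_68773, read 60.9, 51.6, 89.3, 70.4 and 122 CPM in the control males and 165, 218, 250, 272 and 277 CPM in the males at 5 mg/kg. These groups did not overlap, and its log2 fold change was 1.58 ± 0.27 (edgeR adjusted p = 2.82e-05), with 2.14 ± 0.43 at the third probe, against 1.07 at the most counted one. In females these probes gave 0.70 and 0.65, and neither was called (edgeR adjusted p = 0.208 and 0.515).

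For Hsp90ab1 the probes differed more. Hsp90ab1_69879 read 613, 641, 690, 704 and 876 CPM in the control males and 1070, 1260, 1370, 1600 and 1730 CPM in the males at 5 mg/kg. Its log2 fold change was 1.0 ± 0.16 there, and 0.82 ± 0.16 at 0.5 mg/kg (edgeR adjusted p = 0.00104), a dose at which the most counted probe was not called. The remaining 2 probes gave 0.47 ± 0.17 (edgeR adjusted p = 0.0958) and 0.38 ± 0.24 (edgeR adjusted p = 0.411) in males at 5 mg/kg. The Hsp90ab1 rise in females at 5 mg/kg was called at the most counted probe and at Hsp90ab1_65982 (0.74 ± 0.24, edgeR adjusted p = 0.088), and not at the other two. The folds of a gene thus differed by probe, while among probes with reads in every mouse the direction at 5 mg/kg was the same.

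**Figure D3:**
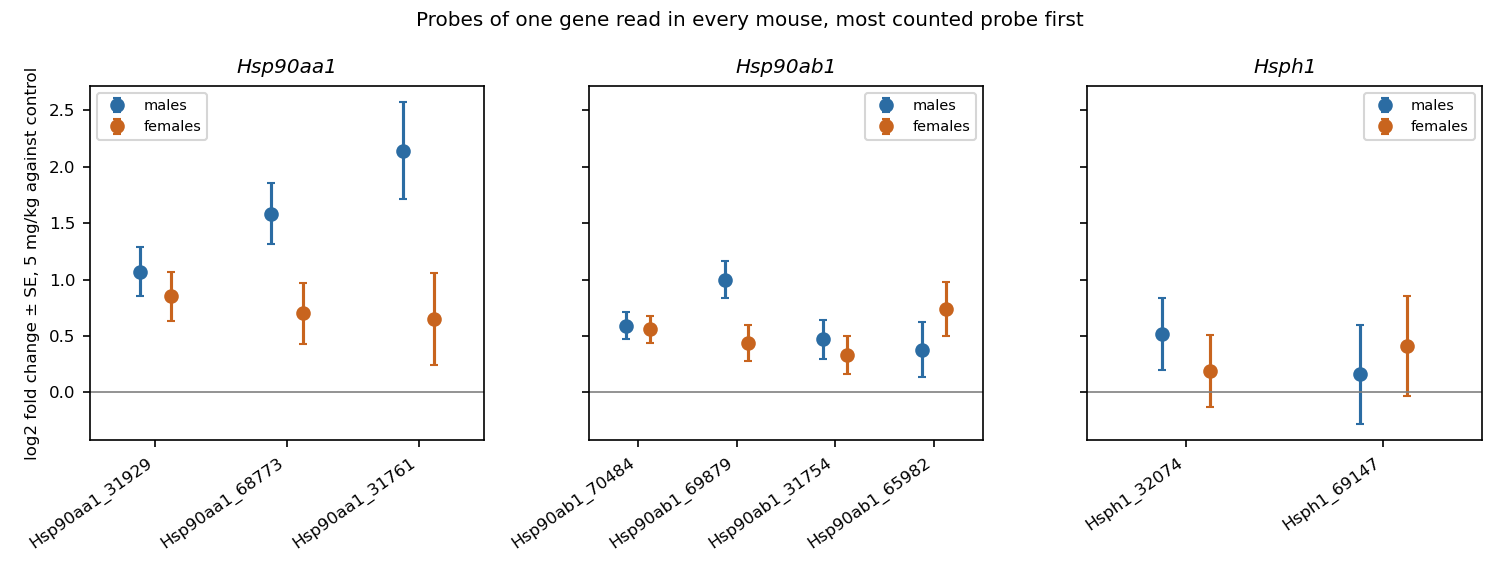
Log2 fold change with its SE at 5 mg/kg bw/d against control (y axis) for the probes of Hsp90aa1, Hsp90ab1 and Hsph1 that had reads in every mouse (x axis, most counted probe first), blue for males and orange for females, from edgeR. All points lie above 0, and the 3 probes of Hsp90aa1 give 1.07, 1.58 and 2.14 in males.

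Mice of one group also differed from each other, and some of the genes moved together in that spread. After the group means were removed, log2 CPM values of pairs of genes were correlated over the 39 mice, and mice were permuted within groups (two-sided permutation test, 100000 draws, smallest possible p = 1e-05, Benjamini-Hochberg adjustment over 45 pairs). Of the 45 pairs, 16 passed an adjusted p of 0.1 by Pearson's r, all positive, and 19 by Spearman's rho. All 10 pairs among the cytosolic genes Hsp90aa1, Hsp90ab1, Hspa8, Hsph1 and Dnaja1 passed, with r from 0.65 to 0.84, rho from 0.59 to 0.80 and adjusted permutation p from 9e-05 to 0.00045. The highest was Hspa8 with Hsph1. Without the 2 mice farthest from the median of 1 gene of the pair, and with the group means kept, these 10 values of r ran from 0.53 to 0.79. With the group means taken again without those mice they ran from 0.49 to 0.82. Values of r without the 2 farthest mice given below keep the group means. Within the sexes, with all mice, the 10 values ran from 0.64 to 0.88 over 20 males and from 0.37 to 0.78 over 19 females.

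The 2 mitochondrial genes showed little correlation with this group of genes. Hspd1 and Hspe1 had an r of 0.06 and a rho of 0.10 with each other (adjusted permutation p = 0.901 and 0.755, r = 0.12 without the 2 farthest mice). Of the 10 pairs of a mitochondrial gene with one of those cytosolic genes, 1 passed, Dnaja1 with Hspe1 at r = 0.38 and rho = 0.44 (adjusted permutation p = 0.0395 and 0.0306, r = 0.50 without the 2 farthest mice). The low counts of Hspe1 and Hspd1, with medians of 7.79 and 18.8 molecules in a mouse, limit what such correlations can show. For the 5 cytosolic genes above the medians ran from 59.5 (Hsph1) to 441 (Hsp90ab1). The part of counting depth in this contrast was not tested. Of the 24 pairs with the other cytosolic genes Hspa1a, Hspa1b or Dnajb1, 5 passed by r and 8 by rho. Hspa1b moved with Hsph1 at r = 0.63 and rho = 0.69 (adjusted permutation p = 0.000129 and 0.00015, r = 0.67 without the 2 farthest mice), and with Hspa8 at r = 0.47 and rho = 0.50 (adjusted permutation p = 0.00368 and 0.00904, r = 0.46 without the 2 farthest mice). With Hsp90aa1 (r = 0.30, rho = 0.46, adjusted permutation p = 0.305 and 0.0369) and Dnaja1 (r = 0.21, rho = 0.38, adjusted permutation p = 0.426 and 0.0611) Hspa1b passed by rho only. The deviations of single genes had an r of -0.09 to 0.37 with the log2 number of molecules in the library.

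**Figure D4:**
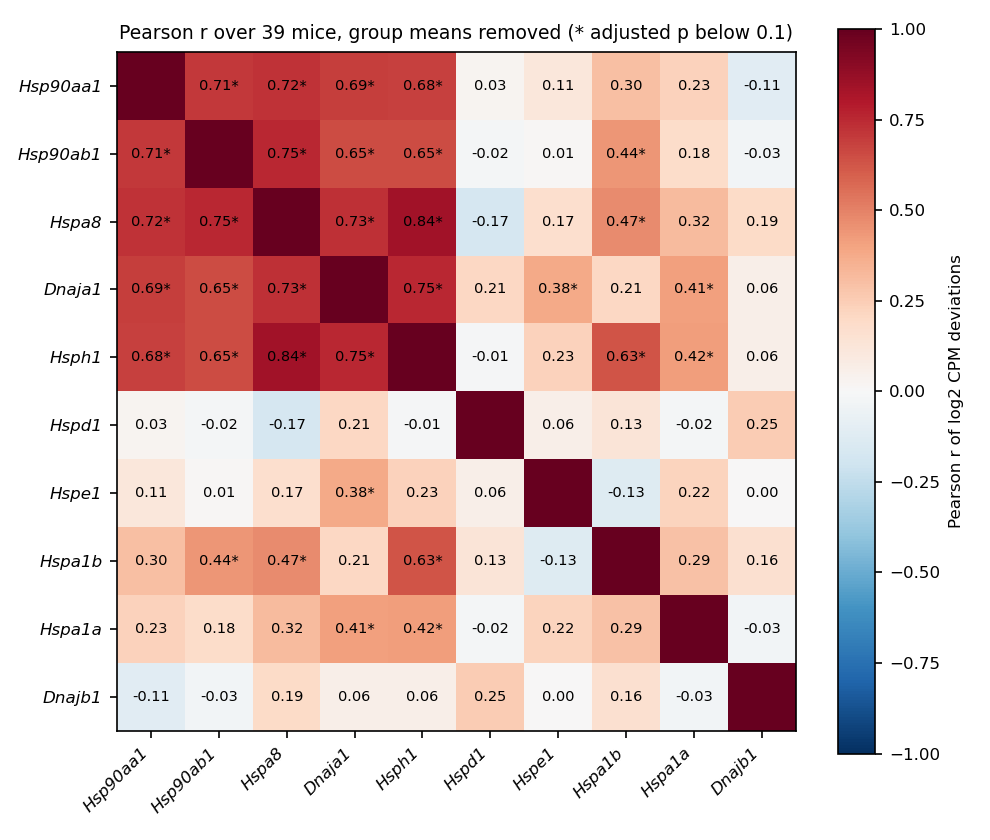
Pearson r between each pair of the 10 chaperone genes over 39 mice, from deviations of log2 CPM from the group mean (colour scale from -1 to 1), with an asterisk where the permutation p adjusted over 45 pairs was below 0.1. The 5 genes in the upper left corner, all cytosolic, have r from 0.65 to 0.84 with one another, and Hspd1 with Hspe1 has 0.06.

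The genes outside the 10 whose spread was most like that of Hspa8, by Pearson's r of the same deviations over the 39 mice, were Hspb8 (r = 0.76), Chordc1 (0.75), Syvn1 (0.74), Creld2 (0.71) and Hspa5 (0.70). Over 12402 genes the median r with Hspa8 was 0 and the 95th percentile 0.33. Hspb8 is a small heat shock protein, Chordc1 an HSP90 co-chaperone, Syvn1 an ubiquitin ligase of the endoplasmic reticulum (ER), and Hspa5 the ER HSP70 BiP. For Hspd1 the closest were Git2 (0.66), Rhoq (0.66), Zdhhc13 (0.65), Zfp58 (0.65) and Fam3c (0.64), with a 95th percentile of 0.32. Most of these were low, with Rhoq at a mean of 7.23 CPM and Zfp58 at 4.33 CPM. These values share the libraries and their depth and carry no test.

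Other chaperones of the cytosol, nucleus and mitochondria were counted from 7 lists of 67 tested genes in all. In males 12 of the 67 rose at 5 mg/kg, where 5.59% of all genes increased, and 11 at 0.5 mg/kg, where 1.88% did, and none fell. In females 3 rose at 5 mg/kg, a share near the background of 2.09% increased and 4.09% called, and none at 0.5 or 0.1 mg/kg. At 5 mg/kg their median log2 fold change was 0.40 for males and 0.23 for females, where that over all genes was 0.11 and -0.01. Control females had 5 of the 67 higher than control males, where 3.89% of all genes were called in either direction.

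Among 13 HSP90 co-chaperones 4 rose in males at 5 mg/kg. They included Cacybp, a protein that links HSP90 with ubiquitination, at 82.8 ± 13.3 CPM in control males and 186 ± 21.2 CPM at 5 mg/kg (n = 5 each, log2 fold change 1.17 ± 0.22, edgeR adjusted p = 0.00017). Chordc1 rose by 0.86 ± 0.19 and the cyclophilin Ppid by 0.69 ± 0.22 on the log2 scale. Of 15 other HSP70 and HSP40 genes 1 rose, the HSP110 relative Hspa4l, from 20 ± 13.3 to 79.1 ± 13.4 CPM (n = 5 each, log2 fold change 1.98 ± 0.38, edgeR adjusted p = 0.000185). Of 7 HSP70 cofactors 1 rose, Bag1, a nucleotide exchange factor (0.82 ± 0.17 in males, 0.56 ± 0.17 in females). Of 14 subunits of the CCT chaperonin and of prefoldin, which fold actin and tubulin, 3 rose in males, Cct4 (1.09 ± 0.21), Cct6a (0.71 ± 0.17) and Tcp1 (0.40 ± 0.13), and none was called in females. Of 4 small heat shock proteins none was called at 5 mg/kg by edgeR, and of 4 regulators of HSF1 the binding protein Hsbp1 rose in males (0.53 ± 0.19, edgeR adjusted p = 0.0951).

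Of 10 other mitochondrial chaperones and proteases 2 rose in each sex at 5 mg/kg. Hspa9, the mitochondrial HSP70 that pulls proteins through the import channel, went from 319 ± 30.6 to 512 ± 60.9 CPM in males and from 331 ± 22.1 to 481 ± 33.8 CPM in females (n = 5 each). The log2 fold changes were 0.68 ± 0.12 (edgeR adjusted p = 2.64e-05) and 0.54 ± 0.12 (edgeR adjusted p = 0.00224). The mitochondrial HSP90 gene Trap1 rose by 0.51 ± 0.17 in males, and Grpel1, the exchange factor of Hspa9, rose by 0.59 ± 0.17 in females.

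The called chaperones of the ER lumen were lower. Of 14 such genes 2 fell in males at 5 mg/kg and none rose, where 466 of all 12412 genes fell. The male median log2 fold change was -0.43, against 0.11 over all genes. In females 1 of the 14 fell, where 248 of all 12412 genes did. The female median was -0.33, against -0.01 over all genes. Sdf2l1 went from 112 ± 52.3 to 42.1 ± 19.8 CPM in males (n = 5 each, log2 fold change -1.41 ± 0.33, edgeR adjusted p = 0.00261). Dnajb11, the J protein of BiP, changed by -0.67 ± 0.19 in the males on the log2 scale (edgeR adjusted p = 0.0187) and by -0.62 ± 0.19 in the females (edgeR adjusted p = 0.063). In males 5 of the 14 were lower at 5 than at 0.5 mg/kg, where 229 of all 12412 genes were. At 0.5 mg/kg none of the 14 was called against control in either sex, and the median changes were 0.14 (males) and 0.11 (females).

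**Figure D5:**
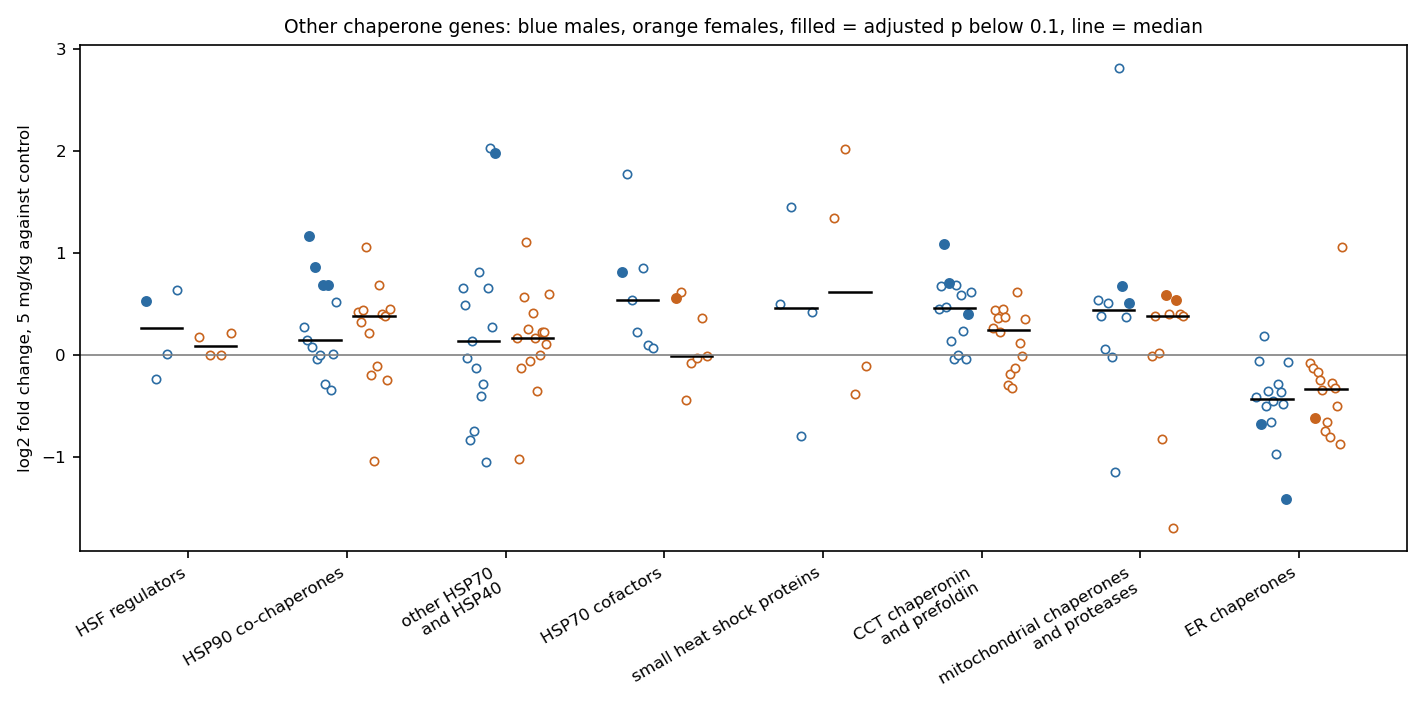
Log2 fold change at 5 mg/kg bw/d against control (y axis, from edgeR) of each tested gene in 8 lists of other chaperones (x axis), blue for males and orange for females, with the list median as a line. Filled points have an adjusted p below 0.1. Filled points lie above 0 in the lists other than ER chaperones and below 0 in the ER list, whose medians are -0.43 in males and -0.33 in females.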

How the data were processed

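Liver RNA of 40 mice was measured with TempO-Seq. The deposited values are raw read counts per detector probe. The submitters' processing notes name bcl2fastq 2.17.1.14, Bowtie and the build mm10, without their roles. The authors counted reads per probe and used DESeq2 for their tests. Groups came from the sex and dose of each animal in the labels. Animals are separate mice, and no 2 libraries of a group agreed within sampling noise. The library of mouse 355 (6711981 reads) was left out, since it lay under the mean minus 2 SD of reads (9680193).

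The counts were tested with edgeR 4.0.16 in R 4.3.3: TMM scaling, filterByExpr (minimum count 10), 1 coefficient per group over 8 groups, the quasi-likelihood F-test, Benjamini-Hochberg adjustment over 17877 probes and a threshold of 0.1. SE is the log2 fold change divided by the root of F, and log2 CPM used a prior count of 2. Molecules were estimated as the reads of a library divided by the first peak of its smoothed histogram of nonzero counts. PCR reads carry no molecular identifiers. DESeq2 1.42.0, its size factors, no filter, all libraries, summed probes, counts in molecules, the compared groups alone and leaving out each mouse were alternatives. The scripts were tested on simulated data. Gene positions came from GENCODE M21.

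Named genes are the 10 members, at most 3 called genes per other list and sex at 5 mg/kg, and the 5 genes most like Hspa8 and Hspd1. Members and lists were chosen with earlier results of these data known.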

Additional observations from a re-analysis of the deposited data

Results flagged for a closer look

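One value stood apart from its group. Hsp90ab1 in male mouse 201 at 0.1 mg/kg read 817 CPM, where the other 4 males of the group read 1100 to 1220 CPM. On the log2 scale the gap to the nearest value was 0.743 of the range, above the limit of Dixon's test for 5 values, and on the CPM scale it was 0.703, below that limit. Of 80 gene and group combinations checked, 1 was so flagged, and chance flags about 5% of them. The same mouse was also the lowest of its group for Hsp90aa1, Hspa8, Hsph1, Dnaja1 and Hspa1b, and the highest for Hspe1.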

How the results depend on the processing

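Counts of called chaperone genes moved by more than 1.5 times in these cases. In males at 0.1 mg/kg the 1 call (Hspe1) became 0 with all libraries, with counts in molecules and with the compared groups alone. In males at 0.5 mg/kg the 4 calls became 0 with all libraries, and in females at 5 mg/kg the 4 became 1. The female against male change at 5 mg/kg went from 0 to 1 with the compared groups alone (Hspa1b). The step from 0.5 to 5 mg/kg went from 0 to 1 in males with counts in molecules, and from 0 to 1 in females by DESeq2, without a filter and with counts in molecules. Control females against control males went from 2 to 0 with all libraries and to 1 with counts in molecules. The cause was not tested, except that counts in molecules left 4290 genes to test. Leaving out 1 mouse gave 0 to 1 calls in males at 0.1 mg/kg, 1 to 5 at 0.5 mg/kg and 5 to 6 at 5 mg/kg, 2 to 4 in females at 5 mg/kg, 0 to 3 between control sexes and 0 in the rest. Of single gene values, 45 lost and 3 gained a call without 1 mouse, and 23 lost and 16 gained one under the other settings. The minor probe Hspd1_29930, with 364 reads in 9 mice, reversed the sign of Hspd1, at -7.28 and -1.97 in males at 0.5 and 5 mg/kg and -1.18 in females at 5 mg/kg. Over all genes, DESeq2 called 178, 629 and 1426 in males and 110, 199 and 749 in females by dose, against 5, 324 and 1160, and 0, 25 and 508, by edgeR, and with all libraries edgeR called 0, 65 and 652, and 0, 8 and 180. Counts in molecules moved the median log2 fold change of all genes in males at 5 mg/kg from 0.11 to 0. Of the correlated pairs, 16 passed, 15 with a prior count of 0.5 and 14 without the 2 farthest mice and with the group means taken again. Depth limited Hspa1a and Dnajb1, read as a few molecules. No paired analysis was possible because animal numbers are unique to each group.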
